A study of Mus musculus with 3 samples.

Results

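The glomerular layer of the mouse main olfactory bulb was compared with the external plexiform layer that lies directly beneath it, in the same 3 tissue sections. The spots were those that the deposited annotation names as glomerular layer or external plexiform layer, and they were joined to the transcript counts by their pixel position. There were 483278 spots of the glomerular layer and 651672 of the external plexiform layer, together 1134950 of 2250425 spots under tissue, or 50.4%. High-density spatial transcriptomics captures poly(A) RNA on an array of barcoded beads much smaller than most cells, so a spot is a small patch of tissue and not a cell. Both groups came from C57BL/6J mice of 12 weeks of age, and the labels give no treatment or modified allele for either. The labels do not say whether the sections came from separate animals, so the p-values below speak for these 3 sections only. The labels do not say how the authors outlined the regions, so it is not known whether gene levels guided the outlines.

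The glomerular layer is where axons of olfactory sensory neurons, wrapped at their entry by olfactory ensheathing glia, end on the dendrites of mitral and tufted cells, the output neurons of the bulb. Periglomerular interneurons, many of them dopaminergic or calretinin-positive and GABAergic, sit around each glomerulus. The external plexiform layer is mostly neuropil: there the lateral dendrites of mitral and tufted cells meet the dendrites of granule cells at reciprocal synapses, among astrocyte processes and scattered interneurons. Of the marker genes, Omp, Th and Calb2 were higher in the glomerular layer than in the external plexiform layer of each section. For Omp, section 1 rested on only 4 counts against 3. They do not settle the glomerular label, because Omp was higher still in the olfactory nerve layer. Some other tested genes of the same lists, such as Gnal, Pax6 and Sp8, did not pass the test below. Of these, Sp8 went the other way, with a lower mean in the glomerular layer. Pvalb, Vip and Crh, which define external plexiform interneurons, were too scarce for a check of that layer.

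The sums held 49049, 151058 and 132228 counts in the glomerular layer of sections 1, 2 and 3, against 72694, 182699 and 125299 counts in the external plexiform layer. Per 100 spots the glomerular layer gave 30.9, 101 and 75.5 counts, against 28.7, 90.1 and 63.9 counts in the external plexiform layer. The glomerular layer was above the external plexiform layer of its own section each time, with ratios of 1.08, 1.12 and 1.18, while sections differed from each other by far more than layers did. An exact two-sided sign-flip test over 3 pairs cannot go below p = 0.25. Section 1 was the shallowest and stood apart in composition: across genes its glomerular levels correlated with those of sections 2 and 3 at 0.462 and 0.486, against 0.879 between sections 2 and 3, and its external plexiform levels at 0.475 and 0.506, against 0.882. Every pair of sections differed by more than counting noise, with a chi-square per degree of freedom of at least 1.14. Section was therefore kept as a block, and levels are given per section as CPM, the count of a gene per 1000000 counts of that sum.

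In the comparison of the 2 layers, 3200 genes had enough counts to be tested, and they hold 73.3% of the counts. Of these, 29 genes were higher in the glomerular layer, or 0.906% of those tested, and 43 were lower, or 1.34%, together 2.25% (edgeR quasi-likelihood test with section as a block, Benjamini-Hochberg adjusted p below 0.05). The genes with the largest positive fold changes were Pde5a, Npy, Kctd12, Omp, Th, Gng13 and Nxph1, and those with the largest negative ones were Shisa3, Jph4, Camk2a, Hpcal4 and Kcnj16. The fitted changes reached 2.30 upward and -1.70 downward on the log2 scale, and 27 of the genes that passed changed by more than 1. Over all genes tested the median log2 fold change was -0.01. In 24 of the 29 higher genes and 33 of the 43 lower genes the CPM differed in the same direction in 3 of 3 sections. The test picked these genes on the same sums, which favours such agreement. The share over all genes tested was not counted, so these counts are no separate support. The test took the spread of a gene from a trend shared across genes, with infinite median prior degrees of freedom. A gene whose sections disagreed could therefore still pass. For 21 of the 72 genes the 3 levels of one layer did not overlap the 3 of the other, against 215 of all 3200 genes tested, or 6.72%. In sums of tissue, more cells of a type and more RNA per cell cannot be told apart.

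These counts rest on sections 2 and 3 together. Without section 2 the same test gave 5 higher and 1 lower gene, without section 3 it gave 4 and 2, and without section 1 it gave 34 and 64. DESeq2 with the same model gave 4 higher and 6 lower genes. Camk2a, Calb2 and Apod were the 3 genes that passed without each section in turn and under DESeq2. With library sizes as the only scaling, which moved the median of all genes to 0.08, the split was 34 higher and 25 lower. Of the 72 genes, 24 have an exon that overlaps an exon of another annotated gene. Since the labels do not state whether counting used strand, counts of Cdr1, Ddn, Doc2g, Eomes, Gatad2b, Glul, Gng13, Kctd12, Kif5b, Map1a, Map2, Mcf2l, Nnat, Pclo, Pde5a, Pfkp, Pla2g7, Pon2, Psd3, Shank1, Shisa3, Slc1a2, Zeb2 and Zic1 may include reads of the overlapping gene.

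**Figure D1:**
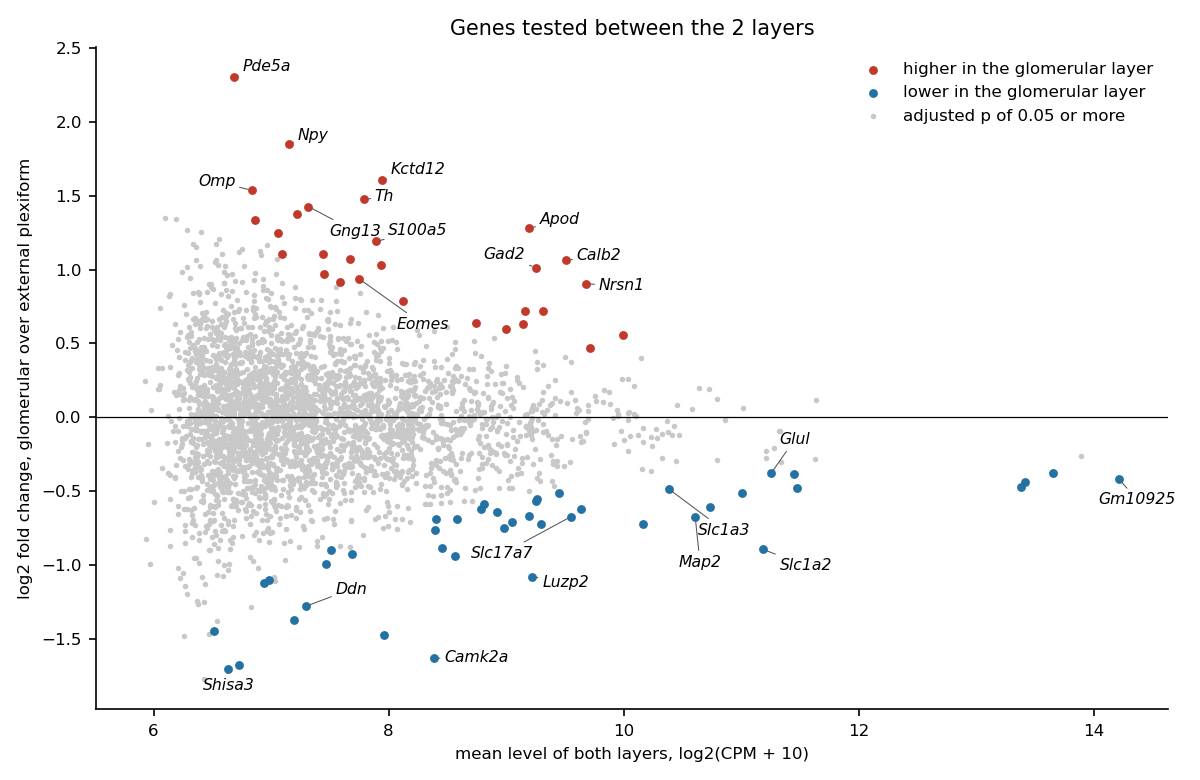
Each point is 1 of 3200 genes, with its mean level in both layers as log2(CPM + 10) on the x axis and its fitted log2 fold change, glomerular over external plexiform layer, on the y axis. Red points are the 29 higher and blue points the 43 lower genes, the higher ones reaching 2.30 (Pde5a) and the lower ones -1.70 (Shisa3), and the most abundant genes that passed, such as Gm10925, lie on the lower side.

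Some genes of olfactory sensory axons were higher in the glomerular layer. Of the 14 genes on that list 5 could be tested, and Omp, Gng13 and S100a5 were higher and none lower. The median log2 fold change of the 5 was 1.19. The filter asked for enough counts in 3 of the 6 sums, so a scarce gene could enter through its level in 1 layer alone. Medians over the tested members of a short list, here and below, therefore describe those members and are no evidence for the list. Omp, which encodes olfactory marker protein, the standard marker of mature sensory neurons, stood at 81.6, 199 and 189 CPM in the glomerular layer, against 41.3, 76.6 and 39.9 CPM in the external plexiform layer. All glomerular levels were above all external plexiform ones, on 59 and 22 counts in all, with a log2 fold change of 1.54 (SE 0.364, adjusted p = 0.00257). Section 1 held only 4 of these counts in the glomerular and 3 in the external plexiform layer, so its place in that order is weak. S100a5, a calcium-binding protein of the same neurons, measured 245, 291 and 424 CPM in the glomerular layer, against 124, 153 and 128 CPM in the external plexiform layer. Again the layers did not overlap, and the log2 fold change was 1.19 (SE 0.256, adjusted p = 0.00062). Gng13, a G-protein gamma subunit of olfactory signalling, had 224, 172 and 265 CPM in the glomerular layer, against 82.5, 65.7 and 87.8 CPM in the external plexiform layer. Its lowest glomerular level, in section 2, was above its highest external plexiform one, in section 3, and the log2 fold change was 1.43 (SE 0.320, adjusted p = 0.00106). An exon of Gng13 overlaps Chtf18 on the other strand.

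The other tested members of the axon list did not pass. Gnal, the G-protein alpha subunit of olfactory transduction, averaged 126 CPM in the glomerular and 82.3 CPM in the external plexiform layer (log2 fold change 0.44, adjusted p = 0.708), and Kirrel3, an adhesion molecule that sorts sensory axons, averaged 88.5 and 79.1 CPM (0.55, adjusted p = 0.760). Channel subunits of the sensory cilia were close to absent, with 2 counts of Cnga2 and 3 of Cnga4 in the glomerular layer and 0 of either in the external plexiform layer. Summed over the list, CPM was 795, 1112 and 1286 in the glomerular layer, against 509, 569 and 551 in the external plexiform layer, with no overlap.

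Genes of olfactory ensheathing glia were higher as well: of 4 tested members of 10, Apod, Fabp7 and Npy were higher and none lower, with a median log2 fold change of 1.12. Apod, a lipid-binding lipocalin (chromosome 16), stood at 673, 887 and 892 CPM in the glomerular layer, against 330, 356 and 319 CPM in the external plexiform layer. The external plexiform levels differed little between sections and lay below every glomerular level, and the log2 fold change was 1.28 (SE 0.168, adjusted p = 4.37e-11). Npy, the peptide neuropeptide Y, which neurons of the bulb also make, measured 347, 139 and 144 CPM in the glomerular layer, against 82.5, 27.4 and 55.9 CPM in the external plexiform layer. Section 1 was highest in each layer and the layers did not overlap, on 57 and 18 counts (log2 fold change 1.85, SE 0.385, adjusted p = 0.000328). Fabp7, a fatty-acid-binding protein of radial and ensheathing glia, had 326, 874 and 1119 CPM in the glomerular layer, against 371, 536 and 527 CPM in the external plexiform layer. It was higher in sections 2 and 3 and slightly lower in section 1 (log2 fold change 0.72, SE 0.156, adjusted p = 0.00066). With spots up to 25 array positions from a different region left out, the log2 fold change of Fabp7 was 0.00033 (adjusted p = 0.999). Frzb, a secreted Wnt antagonist of these glia, averaged 112 and 72.0 CPM and did not pass (0.97, adjusted p = 0.353). Sox10, a transcription factor of the glial lineage, had 9 counts in each layer.

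Genes of the meninges and of myelin were also followed. Mbp, the main myelin basic protein, averaged 1061 CPM in the glomerular and 1035 CPM in the external plexiform layer and did not pass (log2 fold change 0.04, adjusted p = 0.959). Ptgds, a prostaglandin D synthase of the meninges, measured 795, 1403 and 1331 CPM in the glomerular layer, against 922, 816 and 790 CPM in the external plexiform layer. Section 1 went the other way from sections 2 and 3 (log2 fold change 0.56, SE 0.134, adjusted p = 0.00346), and the other 2 tested meningeal genes, Igfbp2 and Fn1, had log2 fold changes of -0.34 and -0.20 and did not pass. Fibrillar collagen genes of fibroblasts were near the floor, with 14 counts of Col1a1 in the glomerular and 10 in the external plexiform layer.

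Genes of periglomerular interneurons formed the next group. Of 12 list members 5 were tested, Th and Calb2 were higher, none was lower, and the median log2 fold change was 1.06. Calb2, which encodes calretinin (chromosome 8), stood at 1529, 649 and 809 CPM in the glomerular layer, against 605, 317 and 407 CPM in the external plexiform layer. Every glomerular level was above every external plexiform one, and the log2 fold change was 1.06 (SE 0.162, adjusted p = 3.67e-08). Th, tyrosine hydroxylase, the rate-limiting enzyme of dopamine synthesis (chromosome 7), measured 571, 199 and 166 CPM in the glomerular layer, against 206, 49.3 and 79.8 CPM in the external plexiform layer. It was higher in each section, by a log2 fold change of 1.48 (SE 0.304, adjusted p = 0.000292), but the layers overlapped because section 1 was high in both. Pax6, a transcription factor needed for dopaminergic periglomerular cells, averaged 118 and 54.4 CPM and did not pass (1.10, adjusted p = 0.209). Etv1, another transcription factor of that lineage, averaged 196 and 126 CPM (0.55, adjusted p = 0.481), and Sp8, which marks calretinin-positive cells, 107 and 134 CPM (-0.40, adjusted p = 0.722).

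The start of Th is shown with that of Msi2 because both hold the cyclic AMP response element. Of the 72 genes, 51 had an entry in the RefSeq promoter table (build GRCm38.p6), and the 250 bases before each start were searched on both strands. The element, TGACGTCA, was found in 2 of the 24 higher genes with an entry and in 0 of the 27 lower ones. Among genes with an entry, 93 of 2433 tested genes and 478 of all 27025 genes hold it. By windows, it was in 4 of 37 of the higher genes and 0 of 31 of the lower ones. It was in 3.077% of the windows of tested genes and 1.546% of all 32851. The windows of Msi2 that hold it overlap and share the same element. In the window of Th (chr7:142899996-142900245, minus strand) it starts 45 bases before the transcription start. In one of the windows of Msi2 (chr11:88718268-88718517, minus strand) it starts 179 bases before it. A match is a run of letters and says nothing about binding. Capitals mark the element.
Th: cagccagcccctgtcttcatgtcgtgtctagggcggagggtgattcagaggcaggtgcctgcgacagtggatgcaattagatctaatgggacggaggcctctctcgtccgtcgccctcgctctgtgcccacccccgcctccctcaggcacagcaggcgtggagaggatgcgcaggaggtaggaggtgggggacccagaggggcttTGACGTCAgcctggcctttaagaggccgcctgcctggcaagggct
Msi2: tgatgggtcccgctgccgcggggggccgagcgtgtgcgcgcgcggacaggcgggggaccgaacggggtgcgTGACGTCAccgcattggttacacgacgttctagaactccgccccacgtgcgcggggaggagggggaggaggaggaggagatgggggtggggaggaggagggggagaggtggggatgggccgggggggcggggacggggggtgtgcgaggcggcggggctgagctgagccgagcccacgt

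The letters of the TATA box, TATAAA, were found in 0 of the higher genes and in 3 lower ones, Kcnj16, Map1b and Slc1a3. That is 9.677% of the windows of lower genes, and 6.244% of the windows of all tested genes and 12.37% of all windows hold them. The matches start 133, 99 and 161 bases before the transcription start, and that of Slc1a3 is on the opposite strand. Whether any of them acts as a TATA box was not tested.

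Genes of GABA synthesis split. Gad2, the smaller glutamate decarboxylase, which is found at synaptic endings, had 734, 874 and 824 CPM in the glomerular layer, against 303, 345 and 519 CPM in the external plexiform layer. The layers did not overlap, and the log2 fold change was 1.01 (SE 0.164, adjusted p = 3.09e-07). With spots up to 25 array positions from a different region left out it was 0.33 (adjusted p = 0.768). Gad1, the other glutamate decarboxylase, averaged 1430 CPM in the glomerular and 1358 CPM in the external plexiform layer and did not pass (0.09, adjusted p = 0.878). The difference between the changes of Gad1 and Gad2 was not tested. None of the other 5 tested genes passed, among them Slc32a1, the vesicular GABA transporter, with a mean of 410 and 326 CPM (0.51, adjusted p = 0.293), and Slc6a11, a glial GABA transporter, with 1035 and 1226 CPM (-0.35, adjusted p = 0.182). Kctd12, an auxiliary subunit of the GABA-B receptor, had 81.6, 470 and 522 CPM in the glomerular layer, against 55.0, 164 and 128 CPM in the external plexiform layer. It was higher in each section and by most in sections 2 and 3, while the glomerular level of section 1 fell inside the external plexiform range (log2 fold change 1.60, SE 0.247, adjusted p = 4.43e-08). The other 8 tested GABA receptor genes did not pass; Gabbr1, the ligand-binding subunit of the GABA-B receptor, averaged 366 and 219 CPM (0.59, adjusted p = 0.222).

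**Figure D2:**
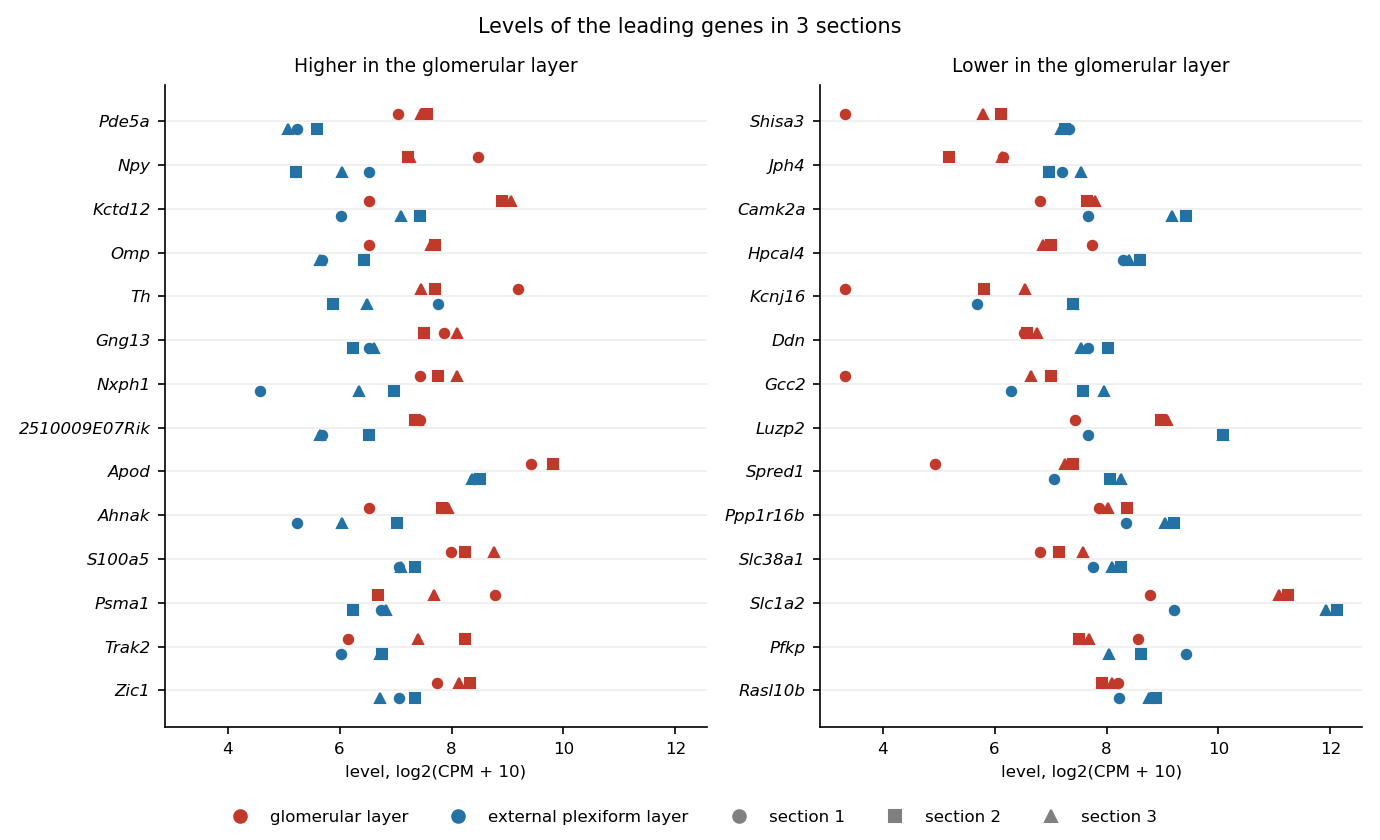
Levels as log2(CPM + 10) on the x axis of the 14 genes with the largest positive fold changes (left) and the 14 with the largest negative ones (right) that moved the same way in 3 of 3 sections, in the glomerular layer (red) and external plexiform layer (blue) of each section (circle, square and triangle). Pde5a, Npy, Omp, Apod and S100a5 separate fully, while Th and Kctd12 overlap between sections, and Shisa3 has 0 counts in the glomerular layer of section 1.

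Further genes that were higher belong to signalling, adhesion and transcription. Pde5a, a phosphodiesterase that breaks down cyclic GMP (chromosome 3), had 122, 179 and 166 CPM in the glomerular layer, against 27.5, 38.3 and 23.9 CPM in the external plexiform layer. Its layers were far apart, on 55 and 12 counts, and its log2 fold change of 2.30 was the largest of the genes that passed (SE 0.445, adjusted p = 6.44e-05). Nxph1, neurexophilin 1, a secreted ligand of alpha-neurexins, measured 163, 205 and 265 CPM in the glomerular layer, against 13.8, 115 and 71.8 CPM in the external plexiform layer. The layers did not overlap (log2 fold change 1.38, SE 0.318, adjusted p = 0.00163), and none of the other 10 tested genes of the neurexin and adhesion list passed. Zic1, a zinc-finger transcription factor of periglomerular lineages, stood at 204, 311 and 272 CPM in the glomerular layer, against 124, 153 and 95.8 CPM in the external plexiform layer, also without overlap (1.07, SE 0.275, adjusted p = 0.0074). Nrsn1, neurensin 1, a vesicle protein of neurites, had 1040, 1066 and 1112 CPM in the glomerular layer, against 481, 520 and 646 CPM in the external plexiform layer. Its glomerular levels were nearly the same in the 3 sections and lay above all external plexiform ones (0.90, SE 0.147, adjusted p = 3.69e-07).

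Other genes of this direction were lower in abundance or varied more. Mcf2l, a guanine nucleotide exchange factor, averaged 313 ± 53.6 CPM in the glomerular layer and 157 ± 26.3 CPM in the external plexiform layer (SD, n = 3; log2 fold change 1.03, adjusted p = 0.0037), and Nnat, neuronatin, 338 ± 15.7 and 198 ± 34.2 CPM (0.78, adjusted p = 0.0415). Neither gene overlapped between the layers, nor did 2510009E07Rik, an uncharacterised gene (158 ± 5.46 and 54.4 ± 24.0 CPM; 1.34, adjusted p = 0.0239). Msi2, the RNA-binding protein Musashi 2, was higher in each section, at 693 ± 202 and 414 ± 210 CPM (0.63, adjusted p = 0.00814). Ahnak, a large scaffold protein, Psma1, a proteasome subunit, Trak2, a kinesin adaptor for mitochondria, Dock10, another guanine nucleotide exchange factor, and Gatad2b, a chromatin repressor subunit, were also higher in each section, with log2 fold changes from 0.92 to 1.25. Kif5b, a kinesin heavy chain, Marcks, a substrate of protein kinase C, and Zeb2, a transcription factor, were higher in sections 2 and 3 and lower in section 1. Kif5b, for example, had 122, 1039 and 930 CPM in the glomerular layer, against 179, 569 and 535 CPM in the external plexiform layer (0.72, SE 0.159, adjusted p = 0.000855).

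Genes of mitral and tufted cells did not move one way. Of 16 on the list 10 were tested, Eomes was higher, Slc17a7 and Doc2g were lower, and the median log2 fold change was -0.19. Eomes, a transcription factor of these neurons (chromosome 9), had 245, 232 and 303 CPM in the glomerular layer, against 234, 98.5 and 120 CPM in the external plexiform layer. It was higher in each section, barely so in section 1, where the external plexiform level exceeded the glomerular level of section 2 (log2 fold change 0.94, SE 0.276, adjusted p = 0.0333). Slc17a7, the vesicular glutamate transporter VGLUT1, measured 1060, 351 and 287 CPM in the glomerular layer, against 1802, 443 and 503 CPM in the external plexiform layer. Section 1 was far above the others in both layers, so the layers overlapped, while each section was lower in the glomerular layer (log2 fold change -0.67, SE 0.166, adjusted p = 0.00473). Doc2g, a C2-domain protein, had 979, 477 and 446 CPM in the glomerular layer, against 1389, 640 and 790 CPM in the external plexiform layer, and was likewise highest in section 1 (-0.62, SE 0.155, adjusted p = 0.00473). An exon of Doc2g overlaps Gm49405 on the same strand.

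Other genes of the output neurons were near the same level in both layers. Cdhr1, a cadherin-related protein of mitral and tufted cells, averaged 581 CPM in the glomerular and 582 CPM in the external plexiform layer (log2 fold change 0.04, adjusted p = 0.959). Cck, cholecystokinin, a peptide of superficial tufted cells, averaged 585 and 573 CPM (-0.05, adjusted p = 0.950), and Reln, reelin, 275 and 402 CPM (-0.52, adjusted p = 0.253). Shisa3, a member of the Shisa family of membrane proteins that is on no list, had 0, 59.6 and 45.4 CPM in the glomerular layer, against 151, 142 and 136 CPM in the external plexiform layer. The external plexiform levels were nearly equal and all above the glomerular ones, on 54 counts against 15 in the glomerular layer (log2 fold change -1.70, SE 0.425, adjusted p = 0.0052). An exon of Shisa3 overlaps Atp8a1 on the other strand.

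Camk2a was lower in the glomerular layer, as were 2 genes of the postsynaptic list. Camk2a, the alpha subunit of the calcium and calmodulin kinase of the postsynaptic density (chromosome 18), had 102, 192 and 212 CPM in the glomerular layer, against 193, 679 and 567 CPM in the external plexiform layer. Each section was lower in the glomerular layer, and the external plexiform level of section 1 lay among the glomerular levels (log2 fold change -1.63, SE 0.215, adjusted p = 4.37e-11). Camk2a stood on the granule cell list, where none of the other 8 tested genes passed and the median was -0.16; Meis2, a transcription factor of granule cells, averaged 505 and 563 CPM (-0.16, adjusted p = 0.797) and Pcp4, a calmodulin-binding protein, 529 and 680 CPM (-0.41, adjusted p = 0.272). Of 11 tested postsynaptic scaffold and kinase genes, Ddn and Shank1 were lower, none was higher, all 11 had negative fitted changes, and the median was -0.45. Ddn, dendrin, measured 81.6, 86.1 and 98.3 CPM in the glomerular layer, against 193, 252 and 176 CPM in the external plexiform layer. No glomerular level reached the external plexiform range (-1.28, SE 0.316, adjusted p = 0.00473). Shank1, a scaffold of the postsynaptic density, averaged 500 ± 173 CPM in the glomerular layer and 710 ± 257 CPM in the external plexiform layer and was lower in each section (SD, n = 3; -0.56, SE 0.157, adjusted p = 0.0243). As background, Camk2a, Ddn, Shank1 and Map2 are known for mRNAs that are carried into dendrites.

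Genes of 3 microtubule-associated proteins were lower too. Of 17 tested cytoskeleton and motor genes Map1a, Map1b and Map2 were lower, none was higher, 16 had negative fitted changes, and the median was -0.28. Map2, the classical marker of dendrites, had 571, 1629 and 1505 CPM in the glomerular layer, against 605, 2611 and 2378 CPM in the external plexiform layer. The 2 deeper sections carried the difference, with section 1 nearly equal (log2 fold change -0.67, SE 0.120, adjusted p = 8.28e-06). Map1a had 489, 993 and 1187 CPM in the glomerular layer, against 674, 1883 and 1604 CPM in the external plexiform layer, and was lower in each section (-0.72, SE 0.130, adjusted p = 8.74e-06). Map1b had 775, 2430 and 1997 CPM in the glomerular layer, against 757, 3487 and 2825 CPM in the external plexiform layer, and was lower in sections 2 and 3 (-0.51, SE 0.114, adjusted p = 0.000943). With spots up to 25 array positions from a different region left out, Map2, Map1a and Map1b had log2 fold changes of -0.37, -0.38 and -0.24 and did not pass (adjusted p = 0.507, 0.513 and 0.680). Kif5a, a neuronal kinesin, and Tuba1a, an alpha-tubulin, had log2 fold changes of -0.03 and -0.04 and did not pass.

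Of 18 genes on the astrocyte list 16 were tested, Slc1a2, Slc1a3 and Glul were lower, none was higher, and the median log2 fold change was -0.37. Slc1a2, the main glutamate transporter of astrocytes (GLT-1), stood at 428, 2403 and 2155 CPM in the glomerular layer, against 578, 4455 and 3871 CPM in the external plexiform layer. It was lower in each section, with section 1 several times below the others in both layers (log2 fold change -0.89, SE 0.113, adjusted p = 1.17e-11). Slc1a3, the other glial glutamate transporter (GLAST), had 367, 1489 and 1520 CPM in the glomerular layer, against 440, 1916 and 2211 CPM in the external plexiform layer (-0.48, SE 0.124, adjusted p = 0.00724). Glul, glutamine synthetase, which converts the glutamate that these transporters take up, had 1549, 2291 and 2624 CPM in the glomerular layer, against 1953, 3153 and 3001 CPM in the external plexiform layer (-0.38, SE 0.109, adjusted p = 0.0269). Both were lower in each section.

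Among the astrocyte genes that did not pass, Gfap, the intermediate filament of reactive and border astrocytes, averaged 149 and 132 CPM (log2 fold change 0.27, adjusted p = 0.828), Aqp4, the water channel of astrocyte endfeet, 320 and 275 CPM (0.13, adjusted p = 0.890), and Apoe, a lipid carrier, 3382 and 2954 CPM (0.12, adjusted p = 0.763). Some genes that are not on this list were lower too and are given here by their known roles. Their cells of origin were not tested, and a place in this paragraph does not make a gene an astrocyte gene. Kcnj10, the inward-rectifier potassium channel Kir4.1 of astrocytes, had 102, 510 and 522 CPM in the glomerular layer, against 165, 870 and 798 CPM in the external plexiform layer (-0.75, SE 0.166, adjusted p = 0.000942). Kcnj16, which encodes Kir5.1, a partner of Kir4.1, had 0, 46.3 and 83.2 CPM in the glomerular layer, against 41.3, 159 and 160 CPM in the external plexiform layer (-1.45, SE 0.415, adjusted p = 0.0275). Both channel genes were lower in each section, and section 1 was the lowest in each layer. Slc38a1, a glutamine transporter, averaged 139 ± 40.1 CPM in the glomerular layer and 255 ± 45.2 CPM in the external plexiform layer with no overlap (SD, n = 3; -0.92, adjusted p = 0.0313). Itgb8, an integrin subunit, Pla2g7, a phospholipase, Plpp3, a lipid phosphatase, and Ptprz1, a receptor phosphatase, had log2 fold changes from -0.90 to -0.51, and each of these 4 was lower in sections 2 and 3 and higher in section 1.

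Further genes of calcium sensing, membrane contacts and signalling, on no list except Pfkp, were also lower in the glomerular layer. Hpcal4, a neuronal calcium sensor of the visinin-like family (chromosome 4), had 204, 119 and 106 CPM in the glomerular layer, against 303, 378 and 327 CPM in the external plexiform layer. Its layers did not overlap (log2 fold change -1.47, SE 0.261, adjusted p = 6.52e-06). Jph4, a junctophilin that ties the endoplasmic reticulum to the plasma membrane in neurons, had 61.2, 26.5 and 60.5 CPM in the glomerular layer, against 138, 115 and 176 CPM in the external plexiform layer, again with no overlap (-1.68, SE 0.427, adjusted p = 0.00682). Luzp2, a leucine-zipper protein, had 163, 490 and 529 CPM in the glomerular layer, against 193, 1067 and 1069 CPM in the external plexiform layer. The difference was wide in sections 2 and 3 and small in section 1 (-1.08, SE 0.161, adjusted p = 1.67e-08). Ppp1r16b, a regulatory subunit of protein phosphatase 1, averaged 264 ± 48.4 CPM in the glomerular layer and 472 ± 138 CPM in the external plexiform layer (SD, n = 3; -0.94, adjusted p = 0.000451). Agap2, a GTPase-activating protein for Arf, and Rasl10b, a Ras-like GTPase, were lower with no overlap between the layers, at -0.64 and -0.76. Unc80, a subunit of the sodium leak channel, Pclo, the presynaptic scaffold piccolo, Psd3, an exchange factor for Arf6, and Pfkp, a phosphofructokinase of glycolysis, were lower in each section, with log2 fold changes from -0.88 to -0.67.

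The most abundant genes that were lower are nuclear copies of mitochondrial genes. Of the 10 tested genes on the list of mitochondria-like pseudogenes 8 were lower and none higher, all 10 had negative fitted changes, and the median was -0.45. Gm10925, whose transcript is 100% identical over 678 bases to the mitochondrial gene mt-Atp6, stood at 6646, 20681 and 22060 CPM in the glomerular layer, against 8116, 26415 and 30160 CPM in the external plexiform layer. Each section was lower in the glomerular layer, and section 1 was far below the others in both (log2 fold change -0.42, SE 0.0945, adjusted p = 0.00106). Gm28437 and Gm28661 are 100% identical to mt-Co3 and mt-Co2 and changed by -0.44 and -0.47. Whether these counts came from the pseudogenes or from the mitochondrial transcripts was not tested, so they are read as uncertain. Summed over the list, the genes averaged 53346 CPM in the glomerular layer and 70292 CPM in the external plexiform layer. Gm12895 and Gm12896, which are 100% identical to each other over 224 bases and so share reads, were also lower, at -0.59 and -0.62, and had 0 counts in section 1.

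Broad cell functions did not separate the layers in this test. None of 79 tested cytosolic ribosomal protein genes, of 77 nuclear-encoded respiratory chain genes or of 16 synaptic vesicle genes passed, with medians of -0.06, 0.00 and -0.01, which became 0.02, 0.07 and 0.06 with library sizes as the only scaling. None of 11 glutamate receptor genes and none of 12 voltage-gated channel genes passed, with medians of -0.11 and -0.27; Gria1, an AMPA receptor subunit, came closest among the receptors with 573 CPM in the glomerular and 359 CPM in the external plexiform layer (log2 fold change 0.54, adjusted p = 0.0832). No tested gene of the endothelial, microglial, red blood cell or neuroblast lists passed. Of the 8 genes on the list of external plexiform interneurons only Kcnc1, a fast potassium channel, could be tested, at 300 and 248 CPM (0.10, adjusted p = 0.937). The defining genes of that list were too scarce, with 8 counts of Pvalb in the glomerular and 3 in the external plexiform layer, 10 and 33 of Vip, and 5 and 11 of Crh.

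**Figure D3:**
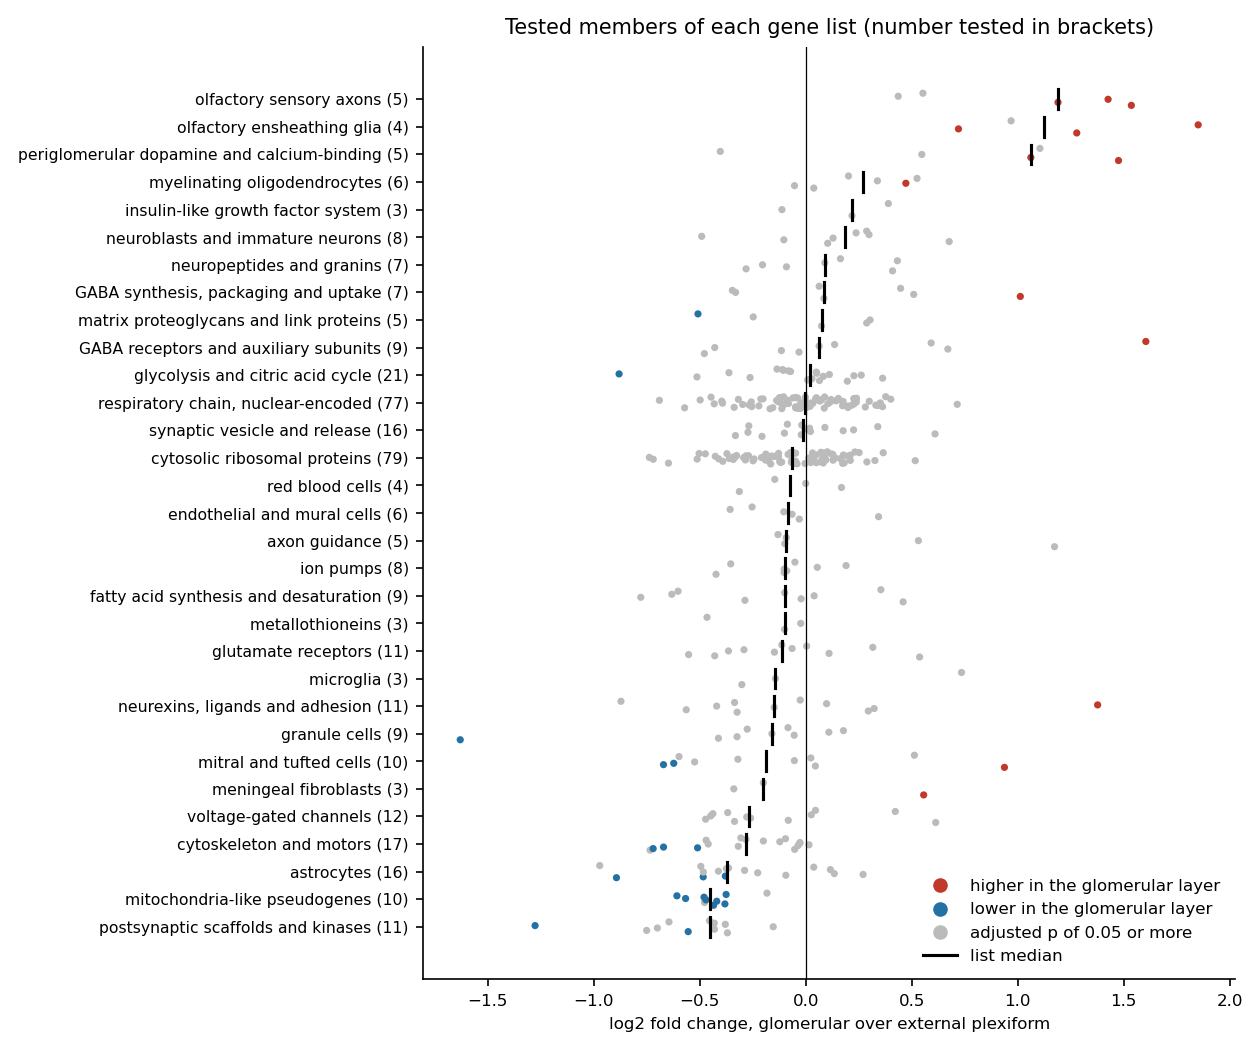
Each point is a tested member of a gene list, with its fitted log2 fold change, glomerular over external plexiform layer, on the x axis; red members were higher, blue ones lower and grey ones had an adjusted p of 0.05 or more, and the black bar is the list median. The medians run from 1.19 for olfactory sensory axons to -0.45 for postsynaptic scaffolds and mitochondria-like pseudogenes, with ribosomal and respiratory genes near 0.

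The levels were then followed across the border of the layers. Within each section the spots of a layer were split into 3 equal parts by their distance to the nearest spot of the other layer, and the values below are mean CPM over the 3 sections, from the outermost glomerular part to the innermost external plexiform part. They use the same counts as the comparison above and carry no test. Parts of scarce genes rest on few counts. In all, the external plexiform layer held 22 counts of Omp, 53 of S100a5, 50 of Kctd12, 31 of Nxph1 and 34 of Th. Apod, Omp and S100a5 had lower means the nearer a glomerular part lay to the border. Apod measured 1385, 732 and 396 CPM through the glomerular layer and 323, 368 and 319 CPM through the external plexiform layer. Omp measured 235, 154 and 88.9 CPM and then 38.0, 69.6 and 51.3 CPM. S100a5 measured 480, 343 and 169 CPM and then 107, 190 and 113 CPM. With so few counts, the differences of both sensory axon genes between external plexiform parts are not read further. In the glomerular part next to the border Apod was close to its external plexiform level. Kctd12 measured 740, 251 and 111 CPM in the glomerular layer and 170, 121 and 56.3 CPM in the external plexiform layer. Its means were lower with depth in both layers, and the first external plexiform part lay above the glomerular part next to it.

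Calb2, Gad2, Nxph1 and Th had their largest difference between neighbouring parts at the border itself. Calb2 measured 1019, 1040 and 935 CPM through the glomerular layer and 364, 451 and 512 CPM through the external plexiform layer. Gad2 measured 809, 780 and 830 CPM and then 323, 382 and 460 CPM, and Nxph1 224, 175 and 234 CPM and then 36.1, 95.8 and 68.2 CPM. Th measured 329, 240 and 359 CPM and then 74.7, 84.3 and 170 CPM. Mean levels of these 4 genes in the glomerular part at the border were about as high as in the outermost part. Eomes was highest in that border part, at 326 CPM, after 190 and 254 CPM in the outer and middle glomerular parts and before 184, 135 and 131 CPM in the external plexiform layer. Its section levels in the border part overlapped those of the middle part. Nrsn1 was still at 803 CPM in the first external plexiform part and was at 407 and 426 CPM deeper in.

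Among the lower genes, Camk2a measured 84.5, 219 and 200 CPM through the glomerular layer and 344, 561 and 540 CPM through the external plexiform layer, with the lowest mean of each layer in its outermost part. Slc1a2 measured 1586, 1777 and 1646 CPM and then 2582, 3482 and 2887 CPM, a step at the border with a flat glomerular layer. Map2 was flat in the glomerular layer at 1243, 1181 and 1268 CPM and measured 1571, 1705 and 2286 CPM in the external plexiform layer. Map1b and Slc17a7 were already higher in the glomerular part at the border, at 2315 and 766 CPM, than in the outermost part, at 1182 and 438 CPM. Section 1 lay above the other sections for Slc17a7 and below them for Map1b and Map2 in every part. Slc1a2 had 320, 2532 and 2084 CPM in the glomerular part at the border, against 485, 3775 and 3487 CPM in the external plexiform part at the border, and was lower on the glomerular side in each section.

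**Figure D4:**
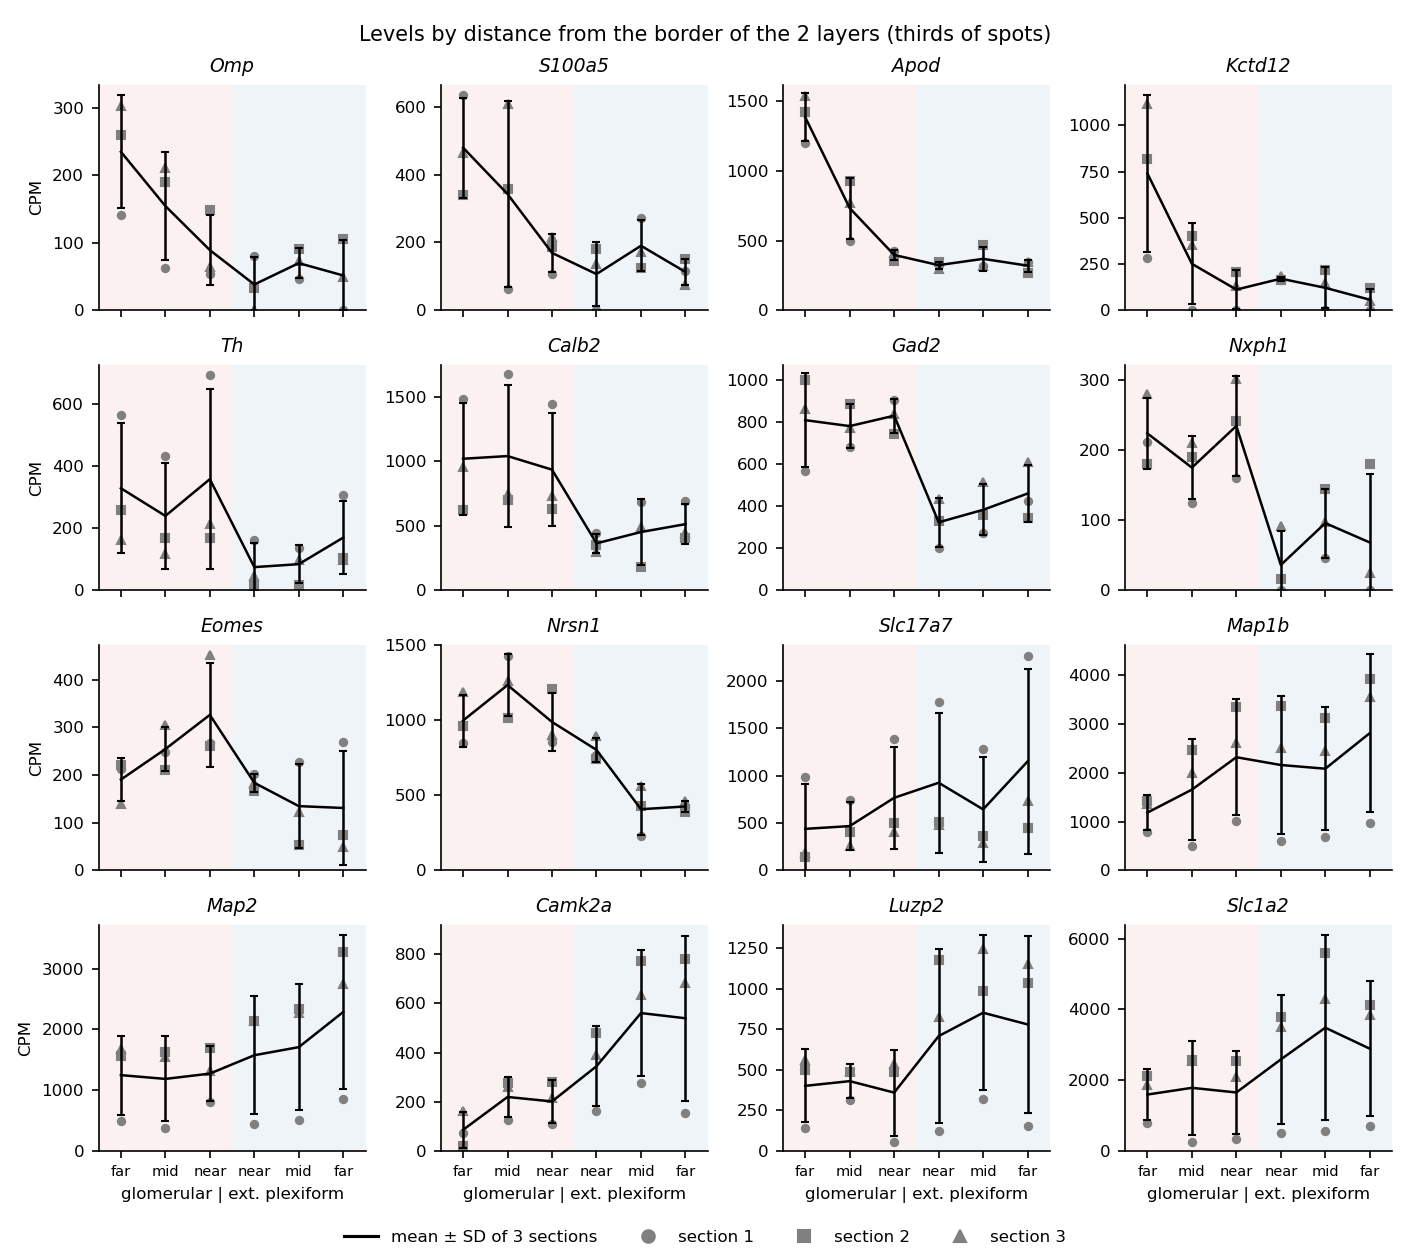
CPM on the y axis in 3 equal parts of the glomerular spots (red background; far, mid and near the border) and 3 of the external plexiform spots (blue background; near, mid and far), with the mean ± SD of 3 sections as a black line and each section as a grey symbol. Omp, S100a5, Apod and Kctd12 slope within the glomerular layer (Apod 1385 to 396 CPM), Calb2, Gad2 and Nxph1 step at the border, and Camk2a and Slc1a2 are higher on the external plexiform side.

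Levels in all 9 annotated regions showed where each difference continued. Of the 29 higher genes, 15 had their highest mean CPM in the olfactory nerve layer outside the glomeruli, 12 in the glomerular layer itself and 2 in the external granule cell layer, leaving out the rostral migratory system because of its few counts. The higher genes, and the lower genes below, were picked for a difference between 2 of these regions on the same sums. Their counts by region are partly set by that choice, and the same counts over all genes tested were not made. Omp averaged 423 CPM in the nerve layer, 156 CPM in the glomerular and 52.6 CPM in the external plexiform layer, and Apod 1937, 817 and 335 CPM in the same regions. Ptgds was at 4092 CPM in the nerve layer. Genes that peaked in the glomerular layer included Calb2 (996 CPM, with 856 CPM in the mitral layer), Th (312 CPM, with 267 CPM in the nerve layer), Nrsn1 (1072 CPM, with at most 609 CPM in any of the other regions), Gad2 (811 CPM), Pde5a (156 CPM) and Eomes (260 CPM, with 202 CPM in the mitral layer).

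Of the 43 lower genes, 29 had their highest mean in the external plexiform layer, 5 in the mitral layer, 3 each in the internal plexiform and external granule cell layers, 2 in the ependymal cell zone and 1 in the internal granule cell layer. Slc1a2 averaged 1662 CPM in the glomerular and 2968 CPM in the external plexiform layer, 1208 CPM in the nerve layer and 1418 CPM in the mitral layer, so the external plexiform layer stood above both sides. Kcnj10 had the same shape, with 378 and 611 CPM in the glomerular and external plexiform layers and 344 and 128 CPM in the nerve and mitral layers. Shisa3 and Slc17a7 were higher still in the mitral layer, at 205 and 985 CPM, than in the external plexiform layer, at 143 and 916 CPM. Camk2a was lowest in the glomerular layer, at 169 CPM, and stood between 342 and 633 CPM in the regions from the external plexiform layer to the ependymal cell zone. These means share the sums of the comparison above, and their order between neighbouring regions was not tested here.

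**Figure D5:**
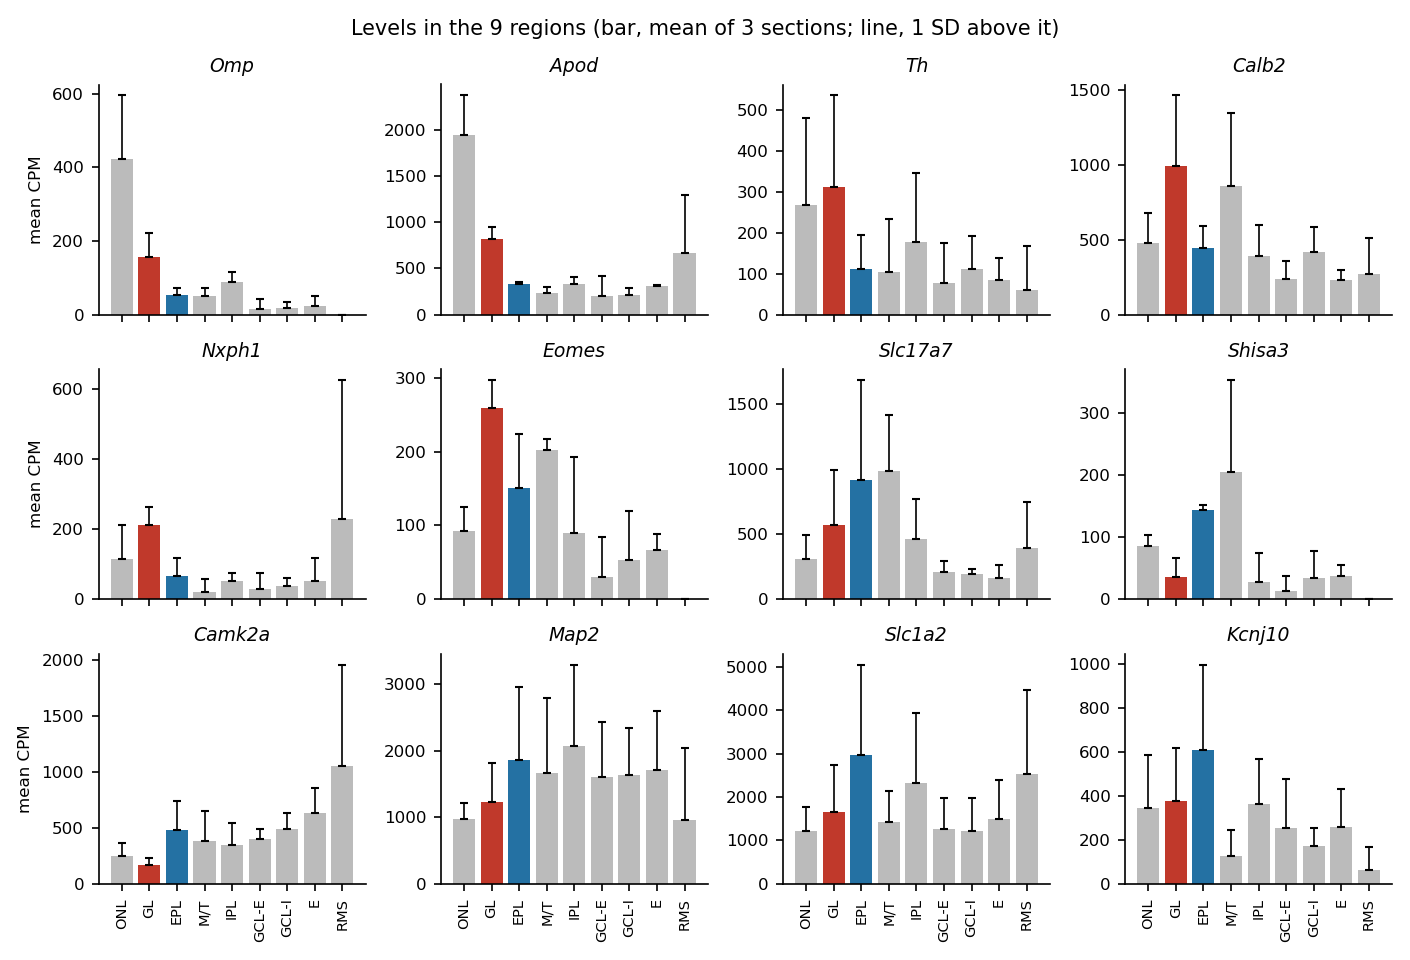
Mean CPM of 3 sections (bars, with lines 1 SD above) in the 9 annotated regions on the x axis, from the olfactory nerve layer (ONL) inward, with the glomerular layer (GL) in red, the external plexiform layer (EPL) in blue and the other regions in grey. Omp and Apod peak in the nerve layer (423 and 1937 CPM), Calb2, Th and Eomes in the glomerular layer, Slc1a2 and Kcnj10 in the external plexiform layer, and Shisa3 and Slc17a7 in the mitral layer (M/T).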

How the data were processed

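Spatial arrays were used on 3 sections of mouse main olfactory bulb. The authors deposited, per section, whole-number transcript counts per spot and gene, and a table of positions and named regions. The submitters' processing notes name mm10 as the build; aligner, counter, annotation and strand setting are not given in the sources used here.

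Counts and regions were joined by pixel position (100% of entries), and counts without a gene name (112, 497 and 405 in sections 1 to 3) were left out. Counts were summed per section and layer, and the 6 sums of 49049 to 182699 counts were tested with edgeR 4.0.16 (R 4.3.3; quasi-likelihood, TMM scaling, filterByExpr with a minimum count of 10, section and layer in the model), with Benjamini-Hochberg adjustment over 3200 genes. Sections pair the layers because both are parts of one section, and deviations of the same section correlated at 0.715, 0.575 and 0.480. Layers of sections 2 and 3 taken across each other correlated about as well, at 0.513 and 0.538. Those of section 1 with the other sections correlated at -0.643 to -0.573. Deviations from the mean of only 3 sections sum to 0, so negative correlations between some sections are forced. The values thus mainly set section 1 apart from sections 2 and 3, and their negative sign is no separate evidence about section 1. On simulated counts for this comparison the test was checked: over 3217 genes a fold of 2 was recovered for 60.6% and a fold of 4 for 100% of changed genes, and 1.24% of calls were false. The simulated counts took the spread fitted by this test and the same layer change in each section. These rates therefore do not cover layer changes that differ between sections, and they are not the error rate of the real calls. Values are CPM with SD over 3 sections, and precision is limited by the counts of each sum.

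Named genes were the 14 with the largest change in each direction among those that passed, moved the same way in 3 of 3 sections and held at least 40 counts in the higher layer, then list members that passed and up to 3 others of each list by total counts. Genes outside this rule (Agap2, Cdr1, Dock10, Gatad2b, Itgb8, Kcnj10, Kif5b, Marcks, Mcf2l, Msi2, Nnat, Nrsn1, Pclo, Pla2g7, Plpp3, Pon2, Psd3, Unc80, Zeb2, Gm12895 and Gm12896, and list members that did not pass or were not tested beyond those 3) were named after their values were seen. A gene that this rule takes is not reported here. The layers and gene lists were chosen with earlier results of these data known. Gene positions are from GENCODE M21, which held 99.8% of 19621 symbols, and copies were sought with blastn 2.17.0. Other tools were DESeq2 1.42.0, matplotlib 3.10.9, scipy 1.17.1, pandas 2.3.3 and numpy 2.4.6 under Python 3.11.15.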

Additional observations from a re-analysis of the deposited data

How the results depend on the processing

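The comparison gave 29 higher and 43 lower genes. RLE scaling, leaving out spots up to 5 array positions from a different region, joining by spot name and a minimum count of 30 kept both counts within 1.5 times. Higher and lower genes numbered 34 and 25 with library sizes as the only scaling, 18 and 34 with no filter on low counts, 17 and 15 in a fit of all 27 sums, 4 and 10 when spots up to 25 positions from a different region were left out (253 genes tested), and 4 and 6 under DESeq2. Leaving out each section gave 4 to 34 higher and 1 to 64 lower genes. Of the 72 genes, 66 passed without section 1, 6 without section 2 (Camk2a, Calb2, S100a5, Apod, Nxph1 and Kctd12) and 6 without section 3 (Camk2a, Slc1a2, Nrsn1, Gad2, Calb2 and Apod), where 2 pairs remained. Without the section as replicate block, edgeR called 0 and 0, with 55 genes at an unadjusted p below 0.05 against 355 with the block; DESeq2 was run with the block alone. The log2 fold changes of the named genes that passed kept their sign under every alternative in which they were tested. Over these alternatives Apod had log2 fold changes of 1.10 to 1.88, Calb2 0.96 to 1.56, Gad2 0.33 to 1.27 and Fabp7 0.00033 to 0.83; the lowest values of Gad2 and Fabp7 came from leaving out spots up to 25 positions from a different region. The cause of each change in count was not tested, apart from the fewer genes or sections tested. Depth limits the comparison to genes past the minimum count of 10, and section 1 was the shallowest.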

Other observations

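Some list members held too few counts to be tested but were uneven between the layers, and they were picked here after their values were seen. Trh, thyrotropin-releasing hormone, had 34 counts in the glomerular layer and 6 in the external plexiform layer. Calb1, which encodes calbindin of periglomerular cells, had 15 counts in the glomerular layer and 2 in the external plexiform layer. Cldn5, a tight-junction protein of endothelial cells, had 24 and 9 counts in the same order, and Lrrtm2, a synaptic adhesion protein, 15 and 4. In the other direction, Vip, vasoactive intestinal peptide, had 10 counts in the glomerular layer and 33 in the external plexiform layer. Tbx21, a transcription factor of mitral and tufted cells, had 4 counts in the glomerular layer and 15 in the external plexiform layer. Nr4a1, an activity-induced nuclear receptor, had 11 and 31 counts. None of these differences was tested.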
